A study of Mus musculus with 9 samples.

Results

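The autophagy machinery was taken as 34 genes listed by symbol, with no measured level in the rule, and followed across 3 culture conditions of 1 mouse cell line. A named probe set was found for 33 of them, among 19938 genes in all, and Optn was not analysed here. The 33 genes fall into 7 groups by role, and each gene was read from its brightest probe set.

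Macroautophagy encloses cytoplasm in a double membrane that matures into an autophagosome and then fuses with a lysosome. A kinase complex around ULK1 starts the process, a lipid kinase complex around Beclin 1 marks the growing membrane with phosphatidylinositol 3-phosphate, and ATG9 and ATG2 deliver lipid to it. A ubiquitin-like conjugation cascade then attaches proteins of the ATG8 family, which includes LC3 and the GABARAP proteins, to the membrane, where they bind receptors that carry cargo. The pathway recycles material when nutrients run short, and in mammary epithelium it has been studied in tumor cells that lie dormant.

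RNA came from D2.OR cells, a line from a mouse mammary tumor that is known for dormancy after spread. They had been cultured in 3D within fibrillar collagen I (3 arrays), in non-fibrillar collagen I (3 arrays) or in a condition titled Matrigel (3 arrays), which is a basement membrane extract. No drug, transgene or genetic change is labelled in any group. Culture times were not found in the labels, and no time enters a comparison. The series title ties fibrillar collagen to the protection against mammary cancer that pregnancy brings, and the collagen comparison asks what the fibrillar form changes in these cells.

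The Matrigel group rests on the array titles, because the growth label of those arrays names non-fibrillar collagen I and the series text describes the collagen conditions alone. Those arrays were also deposited later than the others, so condition and any batch cannot be told apart in either comparison with Matrigel. No label says that replicates were separate cultures, so every p-value measures the spread between these arrays, which may be technical. Values are deposited log2 expression, so a difference of 1 is a doubling, and the number of arrays limits their precision. RNA came from whole cultures, and fewer cells with a transcript cannot be told apart from less transcript per cell.

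Across all genes the 9 arrays were alike, with Pearson's r of 0.992 to 0.996 between groups and 0.994 to 0.996 within them, a correlation across genes, which are not independent replicates. The epithelial keratins Krt8 and Krt18 lay between 12.60 and 13.33 log2 units on every array, while Krt19 lay between 5.14 and 5.45 and Epcam between 5.84 and 6.24. The mean of 8 mammary epithelial markers was 8.23 to 8.26 on the fibrillar arrays, 8.23 to 8.27 on the non-fibrillar arrays and 8.12 to 8.15 on the Matrigel arrays. Of these markers, 1 was called higher in fibrillar collagen than in Matrigel and 3 in non-fibrillar collagen than in Matrigel, where 1.45% and 6.75% of all genes were. Among 18 markers of macrophages, fibroblasts, endothelium and adipocytes, Cd14 (-0.37) and Pdgfra (0.67) were called in fibrillar against non-fibrillar collagen. Fabp4 (-0.81) was called in fibrillar collagen against Matrigel. In non-fibrillar collagen against Matrigel the called markers were Cd14 (0.28), Pdgfra (-1.01), Kdr (-0.47) and Fabp4 (-1.02). Of all genes 6.40%, 3.82% and 13.8% were called either way in these comparisons. Within these lists the macrophage marker Cd14 averaged 7.78 and the other 5 macrophage markers 3.999 to 4.97. The fibroblast markers Pdgfra, Col1a1 and Col3a1 averaged 10.80, 8.68 and 6.23, and Dcn and Lum 4.40 and 3.30. The endothelial markers averaged 4.87 to 6.01 and the adipocyte markers 4.09 to 6.13. The part of these markers in the results that follow was not tested.

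Between the collagen forms 3 members of the machinery passed the test. Ulk1, the initiating kinase, and Atg2a, a lipid transfer protein, were higher in fibrillar collagen by 0.23 and 0.26 log2 units, and Atg5, a part of the conjugation machinery, was lower by 0.37. These were 2 higher and 1 lower of 33 members by limma with Benjamini-Hochberg adjustment over all genes at 0.05, where 2.71% of all genes were called higher and 3.69% lower, or 6.40% either way. Without each single array 0 or 1 members were called higher and 0 or 1 lower, and with arrays centred on their medians 0 and 1. With replicate number as a block, which the main fit leaves out, 1 was called higher and 1 lower. The median difference of the members was 0.0005 log2 units, against 0.008 over all genes, with 17 members above 0 and 16 below. The groups did not overlap for 7 members higher and 8 lower in fibrillar collagen, where 11.6% and 13.6% of all genes were so placed. Every member had a mean of at least 6 log2 units. Of the 11071 genes with such a mean, fitted alone, 823 were called higher and 1294 lower, with 3 and 1 members.

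Most members had a lower mean in each collagen than in Matrigel, and few of these differences passed the test. In fibrillar collagen 0 members were called higher and 4 lower, namely Gabarapl1, Atg14, Atg3 and Gabarapl2, beside 1.45% and 2.37% of all genes called higher and lower, or 3.82% either way. Without Matrigel array 1, 2 or 3, and in a fit of its own 6 arrays, 2 members were called lower. With replicate number as a block 3 were. The median difference was -0.08 log2 units, against 0.003 over all genes, and 27 of 33 members were negative. In non-fibrillar collagen 0 members were called higher and 8 lower, namely Gabarapl1, Atg2a, Ulk1, Atg14, Gabarap, Atg9a, Wipi1 and Nbr1, beside 6.75% and 7.07% of all genes, or 13.8% either way. With arrays centred on their medians 2 members, Atg5 and Atg101, were called higher and 3 lower. With replicate number as a block 0 were called higher and 11 lower. The members called lower numbered 2 without Matrigel array 2, 4 without Matrigel array 3 or non-fibrillar array 2, and 5 without non-fibrillar array 1. In the fit of all arrays as deposited the median was -0.13 log2 units, against 0.0006 over all genes, and 24 of 33 members were negative. At an unadjusted limma p under 0.05 there were 0 members higher in fibrillar and 3 in non-fibrillar collagen than in Matrigel. The share of all genes in that direction was not counted, so these 2 counts have no base rate. In either direction 10 members had such a p between the collagens, 11 in fibrillar and 18 in non-fibrillar collagen against Matrigel, where 21.6%, 18.1% and 25.5% of all genes did. All genes include many dim ones, while every member had a mean of at least 6 log2 units. Of the 11052 genes with such a mean, fitted alone, 442 were called higher and 769 lower in fibrillar collagen than in Matrigel, with 0 and 6 members. In non-fibrillar collagen 1718 and 1685 were called, with 2 and 11 members. The medians over those genes were -0.0161 and 0.004.

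These comparisons share the Matrigel arrays, so both move with any shift of those arrays. For 9 of 33 members (27.3%) all 6 collagen arrays lay below all 3 Matrigel arrays, as did 6.46% of all genes: Atg14, Wipi1, Atg3, Atg7, Atg12, Map1lc3b, Gabarap, Gabarapl1 and Gabarapl2. For 0 members did all collagen arrays lie above all Matrigel arrays, a placing that 4.80% of all genes had. Every member had a mean of at least 6 log2 units, and among the 11052 genes that did, these shares were 10.3% and 7.30%. Of the 33 members 12 did not overlap and lay lower in fibrillar collagen than in Matrigel, where 11.3% of all genes did, and 0 lay higher, where 9.05% did. In non-fibrillar collagen 17 lay lower without overlap and 3 higher, where 14.0% and 14.4% of all genes did.

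All differences were small, from -0.37 to 0.26 log2 units between the collagens, from -0.41 to 0.11 for fibrillar collagen and from -0.46 to 0.20 for non-fibrillar collagen against Matrigel. The median SD within a group was 0.053 log2 units over the members and 0.062 over all genes.

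**Figure D1:**
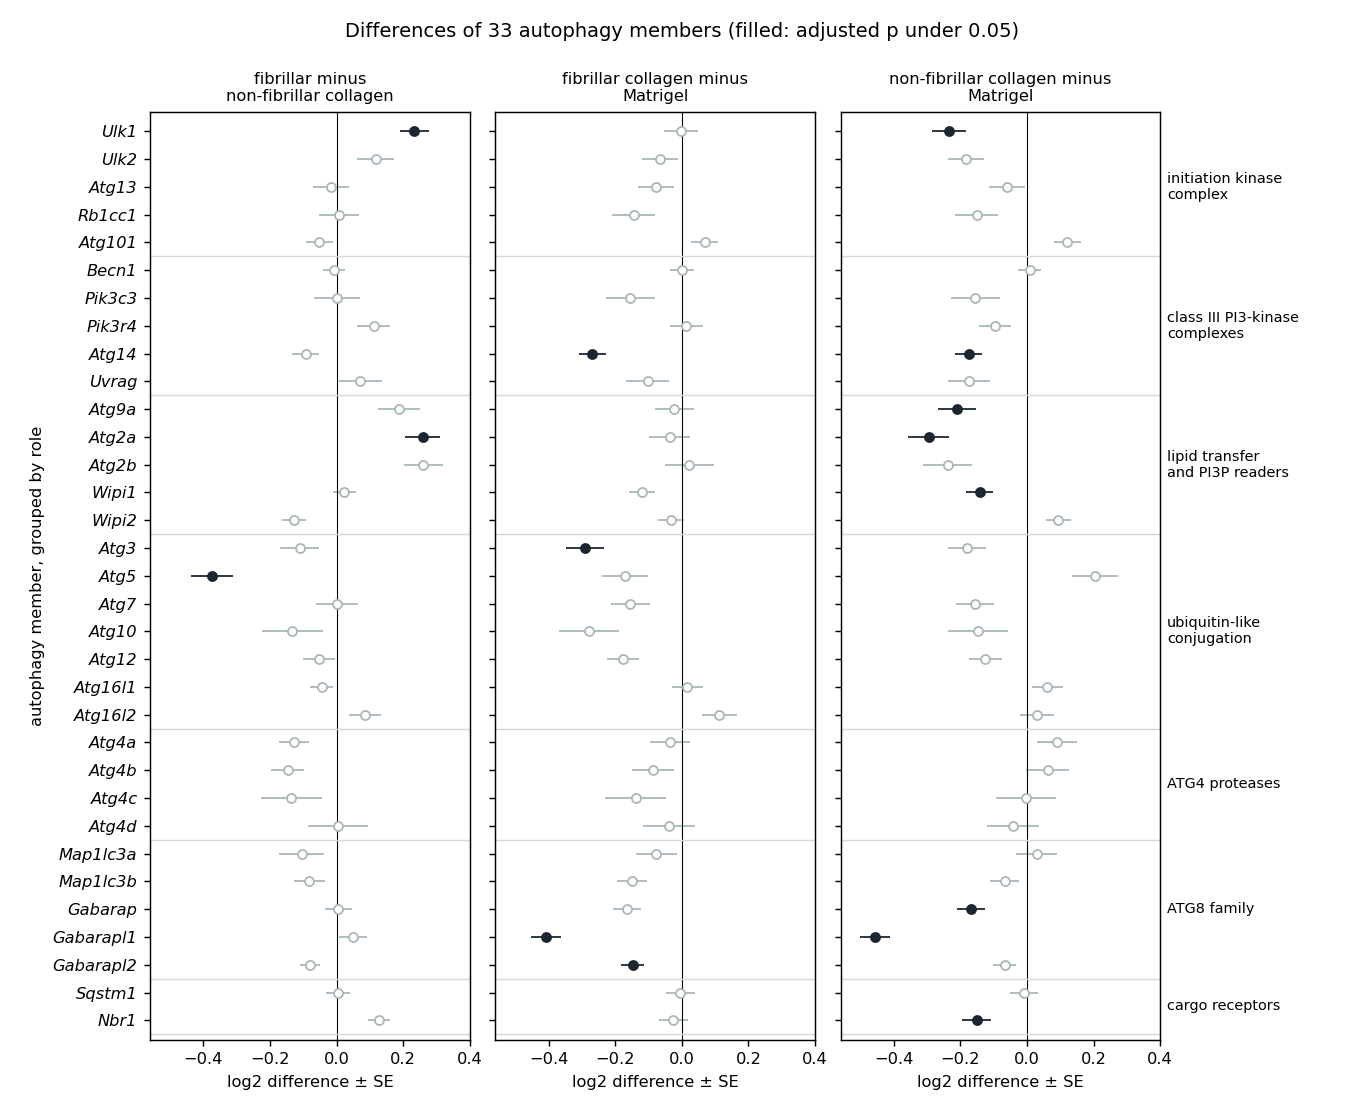
Log2 difference and limma standard error of each of the 33 members in the 3 comparisons, grouped by role; the first group named in a panel title is on the positive side, and filled points passed an adjusted p of 0.05. Points spread to both sides of 0 between the collagens, with 2 called higher and 1 lower, and lie mostly left of 0 against Matrigel, with 4 and 8 called lower.

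In the initiation kinase complex, Ulk1 on chromosome 5 encodes the kinase that receives nutrient signals and starts autophagosome formation. It measured 8.72, 8.67 and 8.80 log2 units on the fibrillar arrays, 8.49, 8.51 and 8.49 on the non-fibrillar arrays and 8.67, 8.82 and 8.70 on the Matrigel arrays. The non-fibrillar arrays were the lowest and overlapped with neither of the other groups, while the fibrillar and Matrigel arrays overlapped. Ulk1 was higher in fibrillar than in non-fibrillar collagen by 0.23 ± 0.044 log2 units (SE, n = 3), or 1.18-fold, with a limma adjusted p of 0.0321. With replicate number as a block, which the arrays of these groups bear out, the adjusted p was 0.0541, and it was 0.0618 with arrays centred on their medians. Without any single array, fibrillar 1, 2 or 3 or non-fibrillar 1, 2 or 3, the call was lost, at adjusted p 0.0623 to 0.106. The difference then stayed between 0.1959 and 0.2628 log2 units. In these fits with fewer arrays the calls over all genes also fell, from 1277 to between 150 and 569. A call lost in this way, here or for the genes below, need not rest on the array left out. In non-fibrillar collagen Ulk1 was lower than in Matrigel by 0.23 ± 0.052 (limma adjusted p = 0.0143), a call lost without Matrigel array 2 (adjusted p = 0.0514). Against Matrigel the fibrillar difference was -0.002 ± 0.052 (limma adjusted p = 0.99).

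The other members of this complex were called in no comparison. Ulk2, a related kinase, averaged 8.70 in fibrillar collagen, 8.58 in non-fibrillar collagen and 8.76 in Matrigel, and its non-fibrillar difference from Matrigel of -0.18 ± 0.054 had a limma adjusted p of 0.0504. Atg101, which steadies the ATG13 subunit, ran the other way, at 7.94 in fibrillar collagen, 7.99 in non-fibrillar collagen and 7.87 in Matrigel. Its non-fibrillar difference of 0.12 ± 0.041 had a limma adjusted p of 0.087, and passed at 0.0474 with arrays centred on their medians. Atg13, the regulatory subunit, ranged from 8.806 to 8.997 over all arrays and Rb1cc1, the scaffold also called FIP200, from 7.96 to 8.30.

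In the class III PI3-kinase complexes, Atg14 on chromosome 14 encodes the subunit that directs the lipid kinase to autophagy. It measured 7.60, 7.58 and 7.58 on the fibrillar arrays, 7.73, 7.62 and 7.69 on the non-fibrillar arrays and 7.87, 7.86 and 7.83 on the Matrigel arrays. No groups overlapped, and the order was fibrillar, non-fibrillar and Matrigel from low to high. Fibrillar collagen was lower than Matrigel by 0.27 ± 0.041 (SE, n = 3), or 1.20-fold, with a limma adjusted p of 0.00747, and the call held without each single array, at up to 0.0357. In non-fibrillar collagen Atg14 was lower than in Matrigel by 0.18 ± 0.041 (limma adjusted p = 0.0182). That call was lost without non-fibrillar array 2 or Matrigel array 2, at up to 0.0651, and with arrays centred on their medians, at 0.0702. The difference between the collagens, -0.09 ± 0.041, did not pass (limma adjusted p = 0.249).

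Uvrag, the subunit that takes the place of ATG14 in an endosomal complex, differed from Matrigel by -0.10 ± 0.064 in fibrillar and -0.17 ± 0.064 in non-fibrillar collagen, and neither passed in limma (adjusted p 0.442 and 0.112). Becn1, the Beclin 1 scaffold of both complexes, was the flattest member, between 9.10 and 9.16 on all 9 arrays, and 4 arrays carried exactly the same value of 9.14. Pik3c3, the catalytic subunit, ranged from 7.39 to 7.78 and Pik3r4, its regulatory partner, from 8.08 to 8.34, and neither was called in any comparison.

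Among the lipid transfer and phosphatidylinositol 3-phosphate reading genes, Atg2a on chromosome 19 encodes a protein that channels lipid into the growing membrane. It measured 8.22, 8.05 and 8.07 on the fibrillar arrays, 7.87, 7.84 and 7.85 on the non-fibrillar arrays and 8.13, 8.26 and 8.07 on the Matrigel arrays. The non-fibrillar arrays lay below all the others, and the fibrillar and Matrigel arrays overlapped. Fibrillar collagen was higher than non-fibrillar collagen by 0.26 ± 0.053 (SE, n = 3), or 1.20-fold, with a limma adjusted p of 0.041. The call was lost without any 1 of the arrays, fibrillar 1, 2 or 3 or non-fibrillar 1, 2 or 3, at adjusted p 0.0504 to 0.133, and with arrays centred on their medians, at 0.0541. With replicate number as a block it was kept, at 0.0489. Non-fibrillar collagen was lower than Matrigel by 0.30 ± 0.061, or 1.23-fold (limma adjusted p = 0.0105), a call that held without each single array at up to 0.04.

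Atg2b, the second gene of that family, resembled it in direction: its means were 8.54 in fibrillar collagen, 8.28 in non-fibrillar collagen and 8.52 in Matrigel. The difference between the collagens, 0.26 ± 0.059, had a limma adjusted p of 0.0521, and that of non-fibrillar collagen from Matrigel, -0.24 ± 0.073, one of 0.0615. In the collagen comparison Atg2b passed without non-fibrillar array 2 (adjusted p = 0.0448) and after a further quantile normalization (0.0331).

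Atg9a on chromosome 1, the membrane protein that scrambles lipids on its vesicles, measured 8.78, 8.79 and 8.88 on the fibrillar arrays, 8.74, 8.52 and 8.62 on the non-fibrillar arrays and 8.82, 8.85 and 8.84 on the Matrigel arrays. Non-fibrillar arrays were again the lowest and the most spread. Atg9a was lower in non-fibrillar collagen than in Matrigel by 0.21 ± 0.058 (SE, n = 3; limma adjusted p = 0.0382). That call was lost without non-fibrillar array 2 or 3 or Matrigel array 1, 2 or 3, at up to 0.119, under both other scalings, at 0.0605 and 0.0903, and in a fit of its own 6 arrays, at 0.0727. The collagens differed by 0.19 ± 0.064, which did not pass (limma adjusted p = 0.152).

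The phosphatidylinositol 3-phosphate readers moved unlike these. Wipi1 on chromosome 11 measured 9.54, 9.51 and 9.52 on the fibrillar arrays, 9.53, 9.48 and 9.49 on the non-fibrillar arrays and 9.70, 9.62 and 9.62 on the Matrigel arrays, so the collagens overlapped and both lay below Matrigel. Wipi1 was lower in non-fibrillar collagen than in Matrigel by 0.14 ± 0.040 (SE, n = 3; limma adjusted p = 0.0404), a call lost without any 1 of non-fibrillar arrays 1, 2 or 3 and Matrigel arrays 1, 2 or 3, at 0.061 to 0.115. It was also lost under both other scalings, at 0.051 and 0.162, and in a fit of its own 6 arrays, at 0.0673. The fibrillar difference of -0.12 ± 0.040 did not pass (limma adjusted p = 0.144). Wipi2, which recruits the conjugation machinery, averaged 9.52 in fibrillar collagen, 9.64 in non-fibrillar collagen and 9.55 in Matrigel, without overlap between the collagens, and the difference of -0.13 ± 0.036 had a limma adjusted p of 0.097.

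In the ubiquitin-like conjugation group, Atg5 on chromosome 10 joins ATG12 to form, with ATG16L1, the complex that attaches ATG8 proteins to membranes, and Atg3 on chromosome 16 encodes the E2-like enzyme that hands them over. Their 250 bases upstream of the annotated gene start are shown because, with Atg7, they were the members whose window held the E-box CACGTG, a motif that TFEB, a regulator of lysosomal and autophagy genes, can bind. The sequences are from RefSeq (GRCm38.p6), 5′ to 3′ on the transcript strand, with the motif in capitals. Both genes lie on the plus strand, Atg3 with the window chr16:45158579-45158828 and Atg5 with the window chr10:44268089-44268338.
Atg3: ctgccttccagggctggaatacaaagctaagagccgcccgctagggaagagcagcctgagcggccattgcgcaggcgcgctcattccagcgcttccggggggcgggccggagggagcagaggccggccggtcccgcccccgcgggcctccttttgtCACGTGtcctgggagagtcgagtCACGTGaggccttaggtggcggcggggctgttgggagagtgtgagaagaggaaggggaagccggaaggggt
Atg5: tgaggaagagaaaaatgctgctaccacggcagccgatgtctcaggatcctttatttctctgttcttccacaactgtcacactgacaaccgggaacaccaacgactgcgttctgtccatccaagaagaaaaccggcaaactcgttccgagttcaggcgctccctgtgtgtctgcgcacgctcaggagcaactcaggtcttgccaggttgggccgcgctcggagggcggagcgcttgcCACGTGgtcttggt
The motif reads the same on both strands and began at positions -94 and -71 relative to the gene start in Atg3 and at -14 in Atg5. It stood in 3 of the 27 members with a window (11.1%), against 6.02% of all 32851 windows in the table, or 6.86% of its 27025 genes. The members' windows had a median of 60.0% G and C, against 52.4% over all windows. A match describes these letters and shows no binding.

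Atg5 measured 8.08, 8.03 and 7.87 on the fibrillar arrays, 8.32, 8.35 and 8.42 on the non-fibrillar arrays and 8.28, 8.10 and 8.10 on the Matrigel arrays. The fibrillar arrays were below all others and the non-fibrillar arrays above all others. Fibrillar collagen was lower than non-fibrillar collagen by 0.37 ± 0.063 (SE, n = 3), or 1.30-fold, with a limma adjusted p of 0.0249, the largest difference of a member between the collagens. That call held under each scaling and with replicate number as a block, there just inside the threshold, but was lost without fibrillar array 2 or 3 or non-fibrillar array 1, 2 or 3, at up to 0.0972. Non-fibrillar collagen differed from Matrigel by 0.20 ± 0.069, which did not pass (limma adjusted p = 0.0842) but passed at 0.0485 and 0.0421 under the other scalings. Fibrillar collagen differed from Matrigel by -0.17 ± 0.069 (limma adjusted p = 0.232).

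Atg3 measured 9.18, 9.14 and 8.98 on the fibrillar arrays, 9.23, 9.18 and 9.21 on the non-fibrillar arrays and 9.45, 9.36 and 9.37 on the Matrigel arrays. The 3 groups did not overlap and kept the order seen for Atg14, from fibrillar at the bottom to Matrigel at the top. The collagens were barely apart, with fibrillar array 1 at 9.177 and non-fibrillar array 2 at 9.182. Their difference of -0.11 ± 0.059 did not pass (limma adjusted p = 0.339). Fibrillar collagen was lower than Matrigel by 0.29 ± 0.056 (SE, n = 3), or 1.22-fold, with a limma adjusted p of 0.0223, a call lost without Matrigel array 1, 2 or 3, at up to 0.0721, and when its own 6 arrays were fitted alone, at 0.0731. The non-fibrillar difference of -0.18 ± 0.056 did not pass (limma adjusted p = 0.063).

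Atg7, the E1-like enzyme of the cascade, and Atg12, the ubiquitin-like partner of ATG5, were called in no comparison, though all collagen arrays lay below all Matrigel arrays. Atg7 averaged 8.13 in each collagen and 8.29 in Matrigel, and Atg12 averaged 7.001 in fibrillar collagen, 7.05 in non-fibrillar collagen and 7.18 in Matrigel. The fibrillar difference of Atg12 from Matrigel, -0.18 ± 0.048, had a limma adjusted p of 0.0811. Atg10, the E2-like enzyme for ATG12, was the most variable member, from 7.36 to 7.96. Atg16l1, which places the complex on the membrane, ranged from 8.41 to 8.59, and its paralog Atg16l2 from 6.93 to 7.20. Atg16l2 carried exactly the same value, 7.04, on 5 of 9 arrays, all 3 non-fibrillar ones included.

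The ATG4 proteases trim ATG8 proteins before conjugation and release them afterwards, and 0 of 4 were called in any comparison. Atg4b on chromosome 1, the most active of them on LC3, had the smallest p of the group between the collagens. It measured 7.58, 7.66 and 7.60 on the fibrillar arrays, 7.78, 7.83 and 7.67 on the non-fibrillar arrays and 7.60, 7.67 and 7.82 on the Matrigel arrays. The fibrillar arrays lay just below the non-fibrillar ones and the Matrigel arrays spanned both. The difference between the collagens was -0.15 ± 0.050 (SE, n = 3; limma adjusted p = 0.153). Atg4a, at 9.21 in fibrillar collagen, 9.34 in non-fibrillar collagen and 9.25 in Matrigel, also had no overlap between the collagens (limma adjusted p = 0.167). A pseudogene copy of Atg4a is annotated on chromosome 3, so its signal is uncertain. Atg4c ranged from 6.81 to 7.20 and Atg4d from 7.51 to 7.84.

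The ATG8 family held the member with the strongest call, Gabarapl1 on chromosome 6, whose protein decorates autophagosomes and binds receptors. Its upstream window is shown for that reason, from RefSeq (GRCm38.p6), plus strand, chr6:129532942-129533191, 5′ to 3′.
Gabarapl1: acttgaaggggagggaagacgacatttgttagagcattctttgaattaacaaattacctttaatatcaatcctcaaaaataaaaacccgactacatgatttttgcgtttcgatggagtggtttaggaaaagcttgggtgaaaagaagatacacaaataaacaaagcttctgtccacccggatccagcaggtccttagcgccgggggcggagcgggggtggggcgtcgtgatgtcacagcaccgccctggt
The window held 46.8% G and C, no CACGTG, and no GTAAACA on either strand, a motif that FOXO factors bind. GTAAACA stood in 0 of the 27 members with a window, against 3.54% of genes or 3.17% of all windows. So few members cannot tell 0 from that share. Only these exact letters were searched, so the absence does not cover other sequences that such factors can bind.

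Gabarapl1 measured 9.45, 9.49 and 9.51 on the fibrillar arrays, 9.45, 9.37 and 9.48 on the non-fibrillar arrays and 9.83, 9.94 and 9.90 on the Matrigel arrays. The collagens overlapped with each other, and the lowest Matrigel array was above the highest collagen array by far more than the spread within any group. Fibrillar collagen was lower than Matrigel by 0.41 ± 0.045 (SE, n = 3), or 1.33-fold, with a limma adjusted p of 0.00147. Non-fibrillar collagen was lower by 0.46 ± 0.045, or 1.37-fold, with a limma adjusted p of 0.000222. Both calls held in every alternative run, at adjusted p of at most 0.00951 and 0.00282. Between the collagens the difference was 0.05 ± 0.042 (limma adjusted p = 0.554).

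Gabarap on chromosome 11, the founding member of its subfamily, measured 12.42, 12.50 and 12.49 on the fibrillar arrays, 12.44, 12.44 and 12.51 on the non-fibrillar arrays and 12.60, 12.63 and 12.67 on the Matrigel arrays. The pattern was that of Gabarapl1 at a smaller size, with overlapping collagens below Matrigel. Non-fibrillar collagen was lower than Matrigel by 0.17 ± 0.042 (SE, n = 3), or 1.12-fold, with a limma adjusted p of 0.0247. That call was lost without non-fibrillar array 1 or 2 or Matrigel array 2 or 3, at up to 0.0831, and with arrays centred on their medians, at 0.0927. The fibrillar difference of -0.16 ± 0.042 did not pass (limma adjusted p = 0.0653).

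Gabarapl2 on chromosome 8 measured 11.75, 11.77 and 11.76 on the fibrillar arrays, 11.85, 11.85 and 11.83 on the non-fibrillar arrays and 11.92, 11.90 and 11.91 on the Matrigel arrays. No groups overlapped, in the order of Atg14 and Atg3. Neither the collagens (limma adjusted p = 0.207) nor non-fibrillar collagen and Matrigel (-0.07 ± 0.034, limma adjusted p = 0.266) differed by a called amount. Fibrillar collagen was lower than Matrigel by 0.15 ± 0.034 (SE, n = 3), or 1.11-fold, with a limma adjusted p of 0.0469. That call was lost without any 1 of fibrillar arrays 1, 2 or 3 and Matrigel arrays 1, 2 or 3, at 0.0951 to 0.11. It was also lost under both other scalings, at 0.0621 and 0.111, in a fit of its own 6 arrays, at 0.0876, and with replicate number as a block. With the mean or the most variable of its probe sets it was lost too, at 0.326 and 0.614. A second, dim probe set of the gene was called in no comparison and differed by 0.17 ± 0.129 between the collagens, opposite in sign to the -0.08 ± 0.031 of the brighter one. A pseudogene copy is annotated on chromosome 14, so this gene's signal is uncertain.

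Map1lc3b and Map1lc3a encode LC3 proteins, the usual markers of autophagosomes, and neither was called. Map1lc3b averaged 10.82 in fibrillar collagen, 10.90 in non-fibrillar collagen and 10.97 in Matrigel, with a fibrillar difference from Matrigel of -0.15 ± 0.044 (limma adjusted p = 0.101), and its other probe set gave -0.16. Map1lc3a ranged from 7.82 to 8.13. LC3 protein conversion, the usual readout of autophagic activity, was not measured on these arrays.

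Of the cargo receptors, Nbr1 on chromosome 11 ties ubiquitin-marked cargo to ATG8 proteins. It measured 9.82, 9.79 and 9.81 on the fibrillar arrays, 9.70, 9.66 and 9.68 on the non-fibrillar arrays and 9.76, 9.90 and 9.84 on the Matrigel arrays. The non-fibrillar arrays were below all the others, as for Ulk1 and Atg2a. Nbr1 was lower in non-fibrillar collagen than in Matrigel by 0.15 ± 0.044 (SE, n = 3), or 1.11-fold, with a limma adjusted p of 0.0482. That call was lost without non-fibrillar array 1, 2 or 3 or Matrigel array 2 or 3, at up to 0.155, and with arrays centred on their medians, at 0.142. It was also lost in a fit of its own 6 arrays, at 0.0863, with the most variable probe set of each gene, at 0.0502, and with replicate number as a block. The collagens differed by 0.13 ± 0.033, which did not pass (limma adjusted p = 0.0784). Sqstm1, the p62 receptor whose protein collects when autophagy stalls, lay between 11.998 and 12.106 on all 9 arrays, with differences of at most 0.01 log2 units in size.

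**Figure D2:**
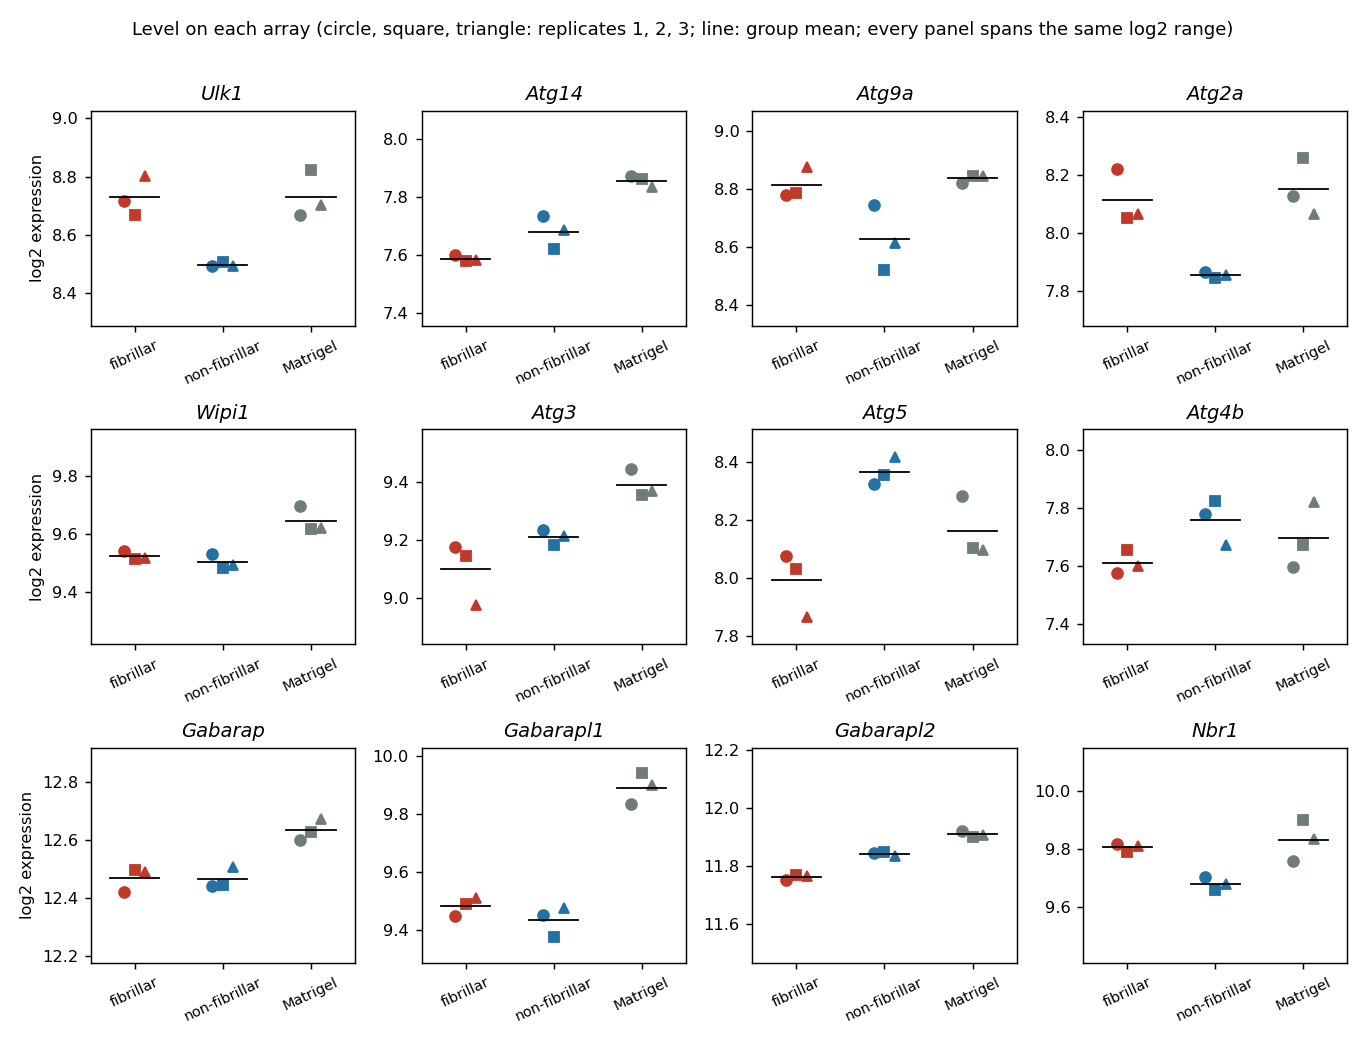
Log2 expression on each array for the 11 members called in a comparison and Atg4b, with the mean of each group as a line; circles, squares and triangles are replicates 1, 2 and 3, and all panels span the same log2 range. Non-fibrillar arrays lie lowest for Ulk1, Atg2a, Atg9a and Nbr1, while the Matrigel arrays lie above both collagens for Gabarapl1, Gabarap, Gabarapl2, Atg14, Atg3 and Wipi1.

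Averaged over all 33 members, each as its deviation from its own mean over the arrays, the fibrillar arrays lay at -0.01, -0.06 and -0.03 log2 units, the non-fibrillar arrays at -0.04, -0.03 and -0.03 and the Matrigel arrays at 0.06, 0.06 and 0.07. All 6 collagen arrays were below 0 and all 3 Matrigel arrays above it. Over all genes the same means stayed between -0.0145 and 0.0083. RMA pulls arrays towards a shared distribution, which keeps means over all genes near 0. They are therefore no baseline for a mean of 33 genes, and no set of equally bright genes was averaged. By role the ATG8 family averaged -0.08 in fibrillar collagen, -0.03 in non-fibrillar collagen and 0.11 in Matrigel. The lipid transfer and reader genes averaged 0.03 in fibrillar collagen, -0.09 in non-fibrillar collagen and 0.07 in Matrigel. The conjugation genes averaged -0.07 in fibrillar collagen, 0.015 in non-fibrillar collagen and 0.06 in Matrigel. The ATG4 proteases differed in order, at -0.06 in fibrillar collagen, 0.04 in non-fibrillar collagen and 0.02 in Matrigel, with Matrigel array 2 at -0.05. The initiation genes averaged 0.004 in fibrillar collagen, -0.05 in non-fibrillar collagen and 0.05 in Matrigel. The PI3-kinase genes averaged -0.03 in fibrillar collagen, -0.05 in non-fibrillar collagen and 0.07 in Matrigel, and the cargo receptors 0.02, -0.05 and 0.03 in the same groups. These means describe the lists and were given no test.

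**Figure D3:**
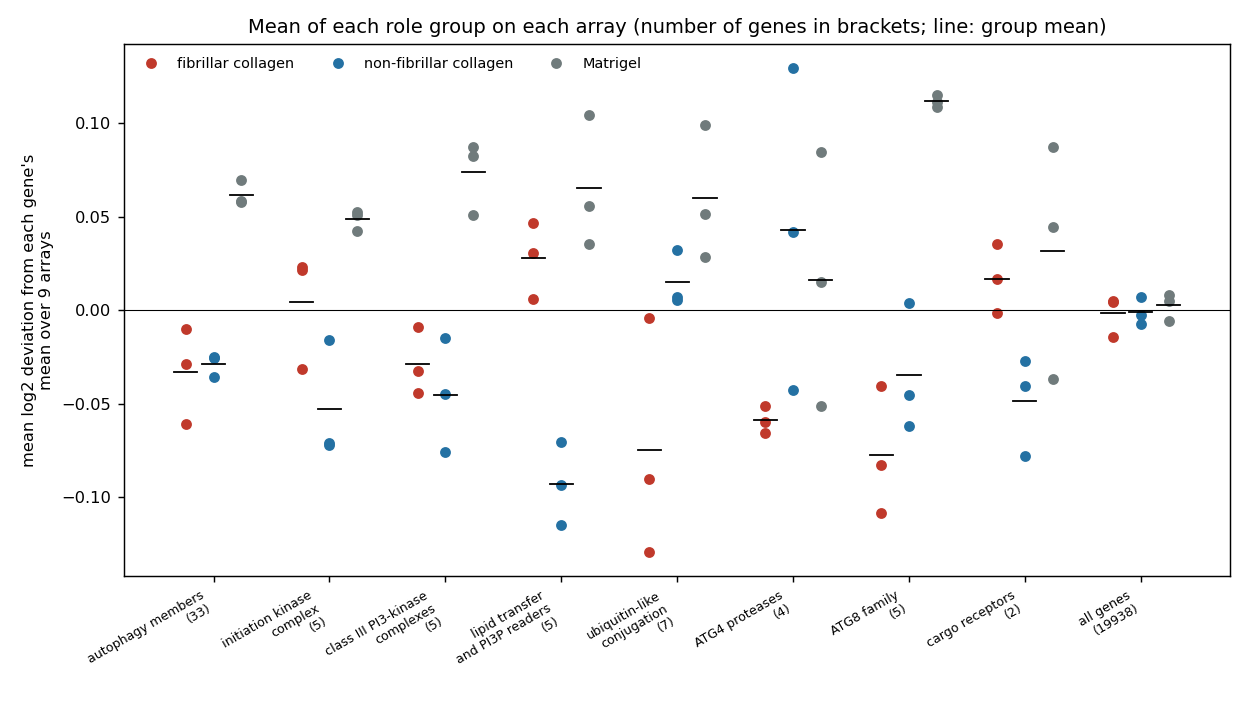
Mean log2 deviation of each role group on each array, each gene taken relative to its own mean over the 9 arrays, with group means as lines and all 19938 genes at the right. The Matrigel arrays lie above all collagen arrays for the 33 members, and for the ATG8 family at 0.109 to 0.115. The means of all genes, between -0.0145 and 0.0083, are kept near 0 by RMA and are no baseline for a short list.

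The surrounding pathway was followed with 83 further genes in 5 lists covering other autophagosome formation genes, fusion with lysosomes, other cargo receptors, nutrient and energy sensing, and transcription regulators of autophagy genes. Between the collagens 7 were called higher and 1 lower in fibrillar collagen, against Matrigel 0 were higher and 6 lower in fibrillar collagen, and 5 were higher and 24 lower in non-fibrillar collagen. Over all genes 2.71% and 3.69%, 1.45% and 2.37%, and 6.75% and 7.07% were called higher and lower in these comparisons, shares that also stand behind the counts of each list. The median differences of the 83 genes were 0.0015, -0.06 and -0.08 log2 units, against 0.008, 0.003 and 0.0006 over all genes.

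Among the 14 fusion genes, 2 were called higher and 1 lower between the collagens, 0 against Matrigel in fibrillar collagen, and 4 lower in non-fibrillar collagen. Plekhm1, an adaptor between ATG8 proteins and the fusion machinery, measured 8.47, 8.47 and 8.51 on the fibrillar arrays, 8.06, 7.998 and 8.01 on the non-fibrillar arrays and 8.55, 8.74 and 8.62 on the Matrigel arrays. It was higher in fibrillar than in non-fibrillar collagen by 0.46 ± 0.036 (SE, n = 3; limma adjusted p = 0.00492) and lower in non-fibrillar collagen than in Matrigel by 0.61 ± 0.050 (limma adjusted p = 7.47e-05), calls that held without each single array. Tecpr1, a tether between autophagosomes and lysosomes, was higher by 0.45 ± 0.066 between the collagens (limma adjusted p = 0.0168, lost without any 1 of the 6 arrays at up to 0.0683) and lower in non-fibrillar collagen than in Matrigel by 0.54 ± 0.059. Vamp8, a fusion SNARE, was the gene called lower between the collagens, by 0.29 ± 0.041 (limma adjusted p = 0.0149), a call lost without fibrillar array 2 or 3 or non-fibrillar array 2 or 3, at up to 0.0656. In non-fibrillar collagen Vps33a, a subunit of the HOPS tether, was lower than in Matrigel by 0.23 ± 0.050, a call lost without non-fibrillar array 2 or Matrigel array 2, at up to 0.0571.

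Among the 27 nutrient and energy sensing genes, 3 were called higher between the collagens, 3 lower in fibrillar collagen than in Matrigel, and 1 higher and 8 lower in non-fibrillar collagen than in Matrigel. Deptor, an inhibitor of mTOR, measured 7.64, 7.48 and 7.59 on the fibrillar arrays, 7.21, 7.19 and 7.26 on the non-fibrillar arrays and 8.10, 7.92 and 7.91 on the Matrigel arrays. All 3 groups lay apart, with fibrillar arrays in the middle. The differences were 0.35 ± 0.051 between the collagens (limma adjusted p = 0.0168), -0.40 ± 0.062 for fibrillar collagen against Matrigel (0.0077) and -0.75 ± 0.062 for non-fibrillar collagen against Matrigel (7.47e-05), of which the first was lost without fibrillar array 3 or non-fibrillar array 1, 2 or 3, at up to 0.0799. Rragd, a GTPase that brings mTORC1 to lysosomes, showed the same order, with 0.35 ± 0.062, -0.34 ± 0.064 and -0.69 ± 0.064 (limma adjusted p 0.0293, 0.0189 and 0.000147). Its first call was lost without fibrillar array 1, 2 or 3 or non-fibrillar array 1 or 2, at up to 0.113, and its second without fibrillar array 1, 2 or 3 or Matrigel array 2, at up to 0.0707. Flcn, which acts on those GTPases, was higher by 0.23 ± 0.036 between the collagens (limma adjusted p = 0.02, lost without fibrillar array 1, 2 or 3 or non-fibrillar array 1 or 2 at up to 0.0767) and lower in non-fibrillar collagen than in Matrigel by 0.38 ± 0.044. Lamtor4, of the lysosomal Ragulator complex, was lower in fibrillar collagen than in Matrigel by 0.22 ± 0.051 (limma adjusted p = 0.0456), a call lost without any 1 of the 6 arrays at up to 0.128, and under both other scalings, at 0.0695 and 0.095, and in a fit of its own 6 arrays, at 0.0633.

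Among the 12 transcription regulators, 1 was called higher between the collagens, 2 lower in fibrillar collagen than in Matrigel, and 1 higher and 6 lower in non-fibrillar collagen than in Matrigel. Tfeb, whose protein can bind the E-box CACGTG, measured 9.27, 9.27 and 9.30 on the fibrillar arrays, 8.96, 9.01 and 9.17 on the non-fibrillar arrays and 9.39, 9.46 and 9.50 on the Matrigel arrays. It was lower in non-fibrillar collagen than in Matrigel by 0.40 ± 0.058 (SE, n = 3; limma adjusted p = 0.00153). Foxo1, which activates autophagy genes, was lower than in Matrigel by 0.23 ± 0.044 in fibrillar collagen (limma adjusted p = 0.0233, lost without fibrillar array 1 or 2 or Matrigel array 2 or 3 at up to 0.0795 under both other scalings at 0.0843 and 0.0543 and in a fit of its own 6 arrays at 0.0512) and by 0.39 ± 0.044 in non-fibrillar collagen (0.000464). Foxk1, which represses autophagy genes, was higher by 0.27 ± 0.040 between the collagens (limma adjusted p = 0.018, lost without fibrillar array 1 or 2 or non-fibrillar array 1, 2 or 3 at up to 0.071) and lower in non-fibrillar collagen than in Matrigel by 0.44 ± 0.045. Trp53inp2, which carries ATG8 proteins out of the nucleus, was lower in fibrillar collagen than in Matrigel by 0.29 ± 0.051 (limma adjusted p = 0.0152), a call lost without fibrillar array 1 or 2 or Matrigel array 2, at up to 0.0647.

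Of the 14 other formation genes, 1 was called higher between the collagens, 0 in fibrillar collagen against Matrigel, and 1 higher and 3 lower in non-fibrillar collagen against Matrigel. Wdfy3, a scaffold for clearing protein aggregates, was higher by 0.27 ± 0.041 between the collagens (limma adjusted p = 0.0193), a call lost without fibrillar array 1 or 2 or non-fibrillar array 1, 2 or 3, at up to 0.0787, and lower in non-fibrillar collagen than in Matrigel by 0.23 ± 0.044. Zfyve1, a marker of early membrane sites, was lower in non-fibrillar collagen than in Matrigel by 0.33 ± 0.057 (limma adjusted p = 0.00423), and its fibrillar difference of -0.20 ± 0.057 did not pass (0.0845). Tmem41b, a lipid scramblase, was higher in non-fibrillar collagen than in Matrigel by 0.19 ± 0.050 (limma adjusted p = 0.032), a call lost without non-fibrillar array 1, 2 or 3 or Matrigel array 1 or 2, at up to 0.0994, and with the mean of its probe sets, at 0.461.

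Of the 16 other cargo receptors, 0 were called between the collagens, where Fundc1, a mitochondrial receptor, came nearest at -0.27 ± 0.066 (limma adjusted p = 0.0656). In fibrillar collagen 1 was lower than in Matrigel, Ccpg1, a receptor for endoplasmic reticulum, by 0.31 ± 0.065 (limma adjusted p = 0.0305, lost without fibrillar array 1, 2 or 3 or Matrigel array 2 or 3 at up to 0.103 and after a further quantile normalization at 0.0693). In non-fibrillar collagen 2 were higher and 3 lower than in Matrigel. Ccpg1 was lower by 0.43 ± 0.065 (limma adjusted p = 0.00204), and Rtn3, another receptor of that organelle, by 0.16 ± 0.037 (0.0164), a call lost without non-fibrillar array 3 at 0.0561 and with arrays centred on their medians at 0.0739. Bnip3, a mitochondrial receptor that rises in hypoxia, was higher by 0.79 ± 0.160, or 1.73-fold (limma adjusted p = 0.00958). It measured 10.38, 9.84 and 10.49 on the non-fibrillar arrays, against 9.48, 9.41 and 9.45 on the Matrigel arrays, so the groups did not overlap and non-fibrillar array 2 lay well below the other non-fibrillar arrays.

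**Figure D4:**
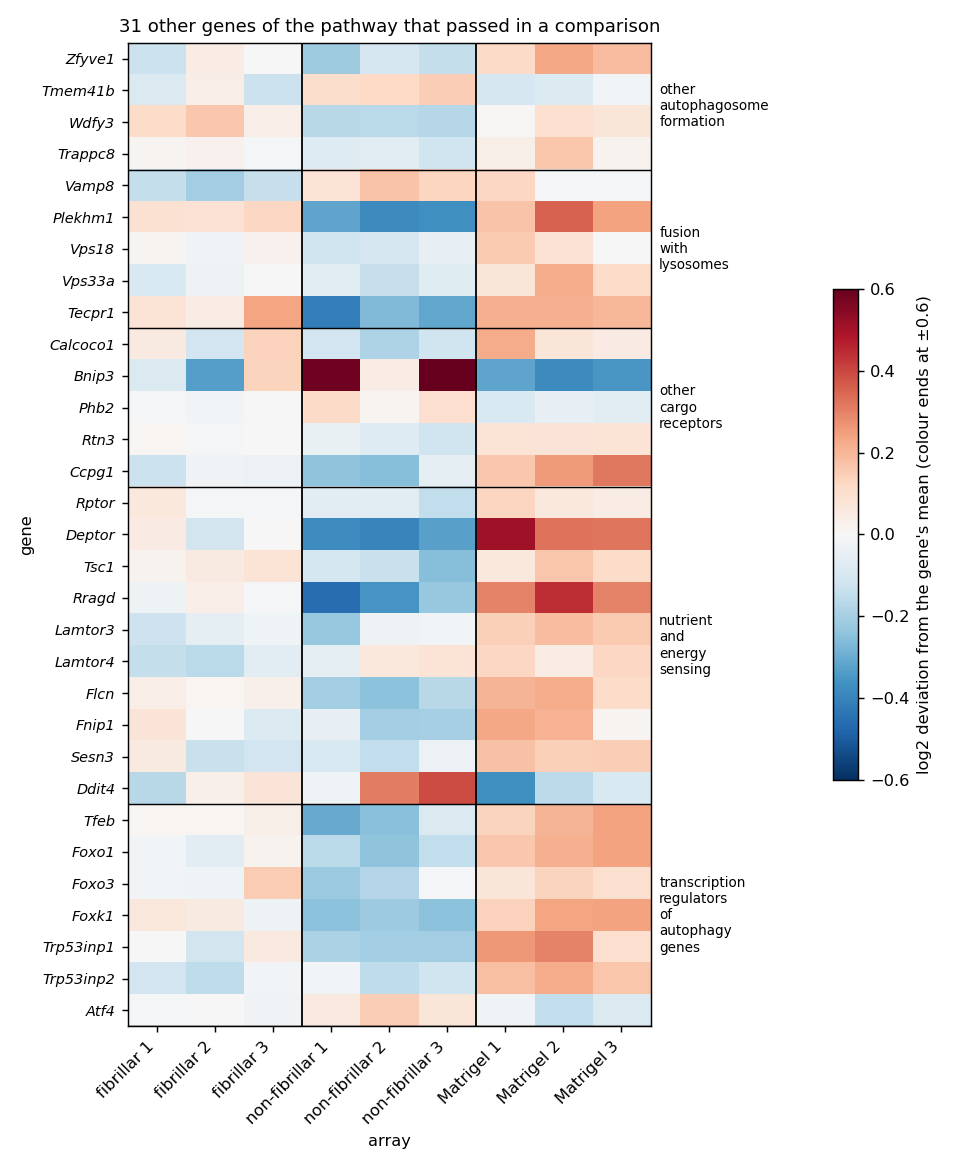
Log2 deviation from the gene's own mean over 9 arrays, by colour, for the 31 of 83 further pathway genes called in any comparison. Columns are arrays by group and rows are grouped by list. The share of all genes called in any comparison was not counted, so 31 of 83 describes the selection shown and has no base rate. Most rows are blue on the non-fibrillar arrays, pale on the fibrillar arrays and red on the Matrigel arrays, while Tmem41b, Vamp8, Bnip3, Phb2, Ddit4 and Atf4 have their highest mean on the non-fibrillar arrays.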

How the data were processed

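RNA of D2.OR cells was measured on 9 Affymetrix arrays, grouped by title. The deposited values are log2 expression that, per the submitters' processing notes, the authors made with RMA in Affymetrix Power Tools. RMA pulls arrays towards a shared distribution, which can hide a change common to most genes. The sources used here give no versions or settings. The platform annotation named 1 gene for 21789 of 35512 probe sets, several for 1621 and none for 12102; those naming 1 gene were used, with the brightest probe set per gene, no filter and no rescaling.

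Differences were fitted with limma 3.58.1 in R 4.3.3 (two-sided, Benjamini-Hochberg over 19938 genes, threshold 0.05), the collagens on their own 6 arrays and the Matrigel comparisons in one fit of all 9. Errors are limma's standard errors. A fold is the size of the difference as a ratio, higher over lower. Over all genes 541 were called higher and 736 lower between the collagens, 289 and 473 in fibrillar collagen against Matrigel, and 1345 and 1410 in non-fibrillar collagen against Matrigel. These splits became 421 and 968, 293 and 370, and 1841 and 1092 with arrays centred on their medians, and 643 and 625, 373 and 366, and 1466 and 1354 after a further quantile normalization.

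Same-numbered collagen arrays deviated together (r across genes 0.221, 0.143 and 0.242), so the numbers may pair them. That pairing comes from the data, not from a label. The main fits did not use it, and replicate number as a block was run as an alternative. Against Matrigel same-numbered arrays gave r of 0.253, 0.103 and 0.0968 in fibrillar collagen and 0.125, 0.0449 and 0.135 in non-fibrillar collagen. Each was above every r of unlike numbers in its comparison, at most 0.0956 and 0.0224. Alternatives were the block, the arrays in the fit, scaling, probe set choice, a filter on dim genes, a trended robust prior, array weights, a threshold of 0.01 and each array left out. The fitting steps were tested on simulated data.

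Members and lists were chosen with earlier results of these data known. Per-array values are given for members called in a comparison and for the member with the smallest p between the collagens in each role group. Of each further list at most 3 called genes a comparison, or the 1 with the smallest p, are named; members with an adjusted p under 0.1 or singled out for their range were named after their values were seen, as were the genes named in the plot of further pathway genes and the markers given by level. Upstream windows came from a RefSeq table that held 27 of the 33 members.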

Additional observations from a re-analysis of the deposited data

How the results depend on the processing

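Precision is limited by 3 arrays a group, and most member calls lay close to the threshold. Of the alternatives run for single named genes, 716 kept direction and side of the threshold, 144 no longer passed, 38 newly passed and 2 changed sign. These runs pool genes that were called with named genes that were not, and only the called ones could lose a call. The share of called genes' runs that lost the call is therefore larger than these counts show. Both sign changes were Gabarapl2 between the collagens, at 0.046 with the mean of all probe sets and 0.172 with the most variable one, a consequence of its second probe set; the cause of other changes was not tested. At a threshold of 0.01, calls over all genes numbered 168, 239 and 1419, against 1277, 762 and 2755 at 0.05, for the 3 comparisons in their order in the report. A filter at a mean of 6 log2 units, which tests fewer genes, gave 2117 and 1211 for the first and second, and a fit of its own arrays gave 460 for the second. Leaving out each array gave 150 to 569, 353 to 513 and 1814 to 2492.

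Between the collagens the 2 members higher became 0 at 0.01, 1 with the replicate block, 0 with centring and 0 to 1 without each array; the 1 lower became 0 at 0.01 and 0 to 1 without each array. The median was -0.0223 with centring and -0.0329 to -0.0007 without each array. In fibrillar collagen against Matrigel the 4 lower became 2 at 0.01, 2 with its own arrays and 2 to 3 without each array, and the median -0.0481 with quantile normalization and -0.0969 to -0.0511 without each array. In non-fibrillar collagen against Matrigel the 0 higher became 1 with quantile normalization, 2 with centring, 2 with the filter, 1 with array weights and 0 to 1 without each array. There the 8 lower became 1 at 0.01, 3 with centring and 2 to 7 without each array, and the median -0.114, -0.0892, -0.143, -0.143 and -0.115 with quantile normalization, centring, the mean of probe sets, the most variable probe set and array weights, and -0.117 to -0.0946 without each array. With the replicate block, 1285, 1020 and 3244 genes were called, and 11 members were lower in non-fibrillar collagen than in Matrigel. Gabarapl2 in fibrillar and Nbr1 in non-fibrillar collagen then no longer passed against Matrigel (limma adjusted p 0.0627 and 0.0665). That the numbers pair the Matrigel arrays rests on the correlations above, not on a label. The count of 9 members with all collagen arrays below all Matrigel arrays, an alternative set chosen after seeing the data, ran from 8 to 12.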

Other observations

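Exactly equal values on different arrays are common in the deposited table. At 5 decimals, 12 of 33 members (36.4%) shared a value between at least 2 arrays, against 59.6% of all genes, and 3 members (Becn1, Map1lc3a and Atg16l2) shared one between 3 or more, against 37.8% of all genes. Atg16l2 had a spread of 0 in non-fibrillar collagen for this reason. Of the 3 members called between the collagens, Ulk1 shared a value between 2 arrays and Atg2a and Atg5 shared none.

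For 3 of the 4 members with a second probe set, Atg4a, Map1lc3b and Atg2b, its differences had the same sign as those of the probe set used, except Atg2b in fibrillar collagen against Matrigel (-0.02 against 0.02), and neither passed there. The second probe set of Gabarapl2 differed in sign between the collagens.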
